A study of Mus musculus with 12 samples.

Results

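The 49 genes described here encode the subunits, activators and assembly factors of the mouse proteasome. They are every gene symbol, of the 40853 in the count tables, that starts with Psm, goes on with a letter from a to g and ends in a number, with or without a further letter. RNA was sequenced from microglia (the brain's resident macrophages) and astrocytes (the star-shaped support cells of the brain), both sorted by flow cytometry from the whole brains of 6 mice. By label, 3 of the mice were WT and 3 KO. The KO is of Kpna4, which encodes importin α4, an adaptor that carries proteins into the nucleus; the strain and which part of the gene was deleted are not stated in the sources used here. All 6 mice were between 8 and 9 weeks of age and had been given an intraperitoneal dose of LPS (1 mg/kg of lipopolysaccharide, the endotoxin of Gram-negative bacteria) 20 h before the brain was taken, so the WT groups are LPS-treated as well, and untreated mice were not analysed here. Each mouse gave 1 microglia and 1 astrocyte library, which makes 4 groups of 3 libraries: WT microglia, KO microglia, WT astrocytes and KO astrocytes.

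The proteasome is the cell's main protease for proteins tagged with ubiquitin. Its barrel-shaped core, the 20S particle, is built of alpha rings, which control entry, around beta rings, in which the catalytic subunits Psmb5, Psmb6 and Psmb7 cut the substrate; the 19S regulatory particle recognises ubiquitin, unfolds the protein and feeds it in. In cells that see interferon or other inflammatory signals, and constitutively in many immune cells, newly built cores carry Psmb8, Psmb9 and Psmb10 in place of Psmb5, Psmb6 and Psmb7 respectively. This form, the immunoproteasome, yields peptides that suit loading on MHC class I, and the activator PA28αβ, encoded by Psme1 and Psme2, is induced with it. In the brain, microglia are the best-known site of immunoproteasome expression, and astrocytes can be induced to express it.

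Library totals were 10.3 to 14.5 M counts in microglia and 10.7 to 15.6 M in astrocytes. Levels are given as CPM, counts per M counts of the library. A set of 8 abundant non-coding RNAs took 11.8% to 15.4% of the counts in microglia and 26.2% to 39.5% in astrocytes, the latter maximum in KO astrocyte library 2. The 8 microglia markers summed to 13503 to 17686 CPM in microglia and to 139 to 527 CPM in astrocytes, and the 8 astrocyte markers to 14695 to 19722 CPM in astrocytes and to 319 to 707 CPM in microglia, so each label matched its own markers. Kpna4 itself was not called between the genotypes in either cell type, with overlapping ranges of 59.8 to 78.6 CPM in KO and 67.9 to 96.4 CPM in WT microglia and of 43.8 to 80.2 CPM in KO and 40.1 to 57.6 CPM in WT astrocytes. The groups are therefore named by their labels below, and a count outside the deleted part would not check them.

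Proteasome genes were expressed throughout both cell types: 46 of the 49 had at least 1 count in all 12 libraries, and the exceptions were Psmb9, the testis form of an alpha subunit, Psma8, and the thymus form of a catalytic subunit, Psmb11. Together the 49 genes took 0.226% to 0.278% of the counts of a microglia library and 0.141% to 0.173% of those of an astrocyte library. Without the 8 abundant RNAs in the totals, the ranges overlapped, at 2569 to 3232 CPM in microglia and 1910 to 2864 CPM in astrocytes. Within animals the sum on that scale was higher in the microglia in 6 of 6, by 44.8 (animal KO 2) to 1049.7 CPM (animal WT 3). That did not hold for every role. In animal KO 2 the activators (543 against 233 CPM) and immunoproteasome subunits (181 against 34.3 CPM) were higher in microglia. The alpha ring (402 against 504 CPM) and 19S lid (568 against 611 CPM) were lower. In animal WT 3 the alpha ring (386 against 309 CPM) and lid (522 against 370 CPM) were higher in microglia. Per kilobase of transcript, on which levels of different genes can be compared, the highest member in microglia was Psme1 at 223 ± 49.7 CPM per kb (SD, n = 6), followed by the 19S ubiquitin receptor Psmd4 at 93.3 ± 14.2 CPM per kb (SD, n = 6) and by Psme2 at 82.2 ± 5.19 CPM per kb (SD, n = 6). The ranges of Psmd4 and Psme2 overlapped, and that of Psme1 began above both. Psmb8 was 7th in microglia, at 61.3 ± 5.90 CPM per kb (SD, n = 6), and 35th in astrocytes, at 8.87 ± 2.23 CPM per kb (SD, n = 6). Its range in microglia, 54.5 to 70.3 CPM per kb, overlapped that of Psma4, ranked 8th, at 42.8 to 67.0 CPM per kb. These levels and ranks depend on the transcript chosen for each gene. In astrocytes the order was led by Psmd4, at 75.7 ± 15.9 CPM per kb (SD, n = 6), the 19S lid subunit Psmd7, at 64.6 ± 19.9 CPM per kb (SD, n = 6), the alpha subunit Psma7, at 55.3 ± 9.44 CPM per kb (SD, n = 6), and Psmb6, at 53.5 ± 13.5 CPM per kb (SD, n = 6), whose ranges overlapped one another.

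The immunoproteasome subunits were higher in microglia than in astrocytes of the same animals in all 6 animals. With all 6 in the fit, the standard subunits that they replace did not pass the test in either direction. Psmb8 (β5i, the chymotrypsin-like subunit) stood at 92.1, 88.7 and 107 CPM in WT microglia and at 101, 95.5 and 114 CPM in KO microglia. In the astrocytes it stood at 17.3, 10.5 and 19.1 CPM in WT and at 9.95, 15.1 and 14.8 CPM in KO mice. Every microglia library lay above every astrocyte library, and the log2 fold change was 2.54 (SE 0.19, adjusted p = 5.9e-07, edgeR's quasi-likelihood test paired by animal), which is a 5.80-fold difference.

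Psmb10 (β2i, the trypsin-like subunit) stood at 44.3, 31.7 and 44.8 CPM in WT and at 39.0, 49.3 and 52.4 CPM in KO microglia, against 5.47, 3.90 and 11.96 CPM in WT and 3.83, 5.68 and 12.3 CPM in KO astrocytes. The microglia and astrocyte ranges did not overlap, and the log2 fold change was 2.45 (SE 0.27, edgeR adjusted p = 1.1e-05). Psmb9 (β1i) was the lowest of the trio, at 3.85, 6.82 and 8.98 CPM in WT and at 13.3, 8.28 and 8.54 CPM in KO microglia. In astrocytes Psmb9 stood at 2.45, 0 and 1.504 CPM in WT and at 0.765, 0 and 0.770 CPM in KO mice. The 2 libraries at 0 counts, WT astrocyte library 2 and KO astrocyte library 2, allow up to 0.244 and 0.279 CPM, the level of 3 counts, which covers counting error only. Its log2 fold change was 3.53 (SE 0.97, edgeR adjusted p = 0.0089), over 51 to 137 counts per microglia library and 0 to 34 per astrocyte library. In the WT animals alone Psmb9 did not pass, at 2.78 (SE 1.39, edgeR adjusted p = 0.13). Exons of Psmb9 share 212 bases with those of Tap1 on the opposite strand, and Psmb8 shares 186 with the gene model Gm20496, in the GENCODE M21 annotation. Of the standard subunits, Psmb7 shares 405 bases with Nek6 on the opposite strand and Psmb5 shares 109 with Mir686 on the same strand; the library kit does not mark strand, so reads from the shared bases cannot be told apart.

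Of the standard catalytic subunits, Psmb5 (β5) stood at 8.29, 5.92 and 21.9 CPM in WT and at 8.53, 14.4 and 24.0 CPM in KO microglia, against 5.90, 6.26 and 9.37 CPM in WT and 9.01, 1.86 and 12.5 CPM in KO astrocytes. The ranges overlapped, and the lowest value, in KO astrocyte library 2, came from 20 counts. Its log2 difference was 0.61 (SE 0.42, edgeR adjusted p = 0.23). Without animal KO 1, Psmb5 was called higher in microglia (log2 1.12, edgeR adjusted p = 0.043). With each animal left out in turn, its difference ranged from 0.46 to 1.12. Psmb6 (β1) stood at 37.2, 32.3 and 46.6 CPM in WT and 29.1, 39.5 and 64.0 CPM in KO microglia, and at 44.0, 54.5 and 30.7 CPM in WT and 32.7, 56.0 and 38.1 CPM in KO astrocytes, with a log2 difference of -0.34 (SE 0.26, edgeR adjusted p = 0.28). Psmb7 (β2) stood at 18.5, 14.3 and 23.5 CPM in WT and 25.7, 18.8 and 29.5 CPM in KO microglia, and at 18.8, 11.3 and 20.7 CPM in WT and 16.7, 21.0 and 22.4 CPM in KO astrocytes, with a log2 difference of -0.06 (SE 0.24, edgeR adjusted p = 0.86). For all 3 the microglia and astrocyte values lay intermingled, and the errors leave room for differences in either direction for each of them. The direction of Psmb7 changed to 0.23 when libraries were scaled to their totals alone. Summed, the immunoproteasome trio took 127 to 175 CPM in microglia and 14.4 to 32.5 CPM in astrocytes, while the standard trio took 52.5 to 118 CPM and 58.4 to 78.9 CPM.

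**Figure D1:**
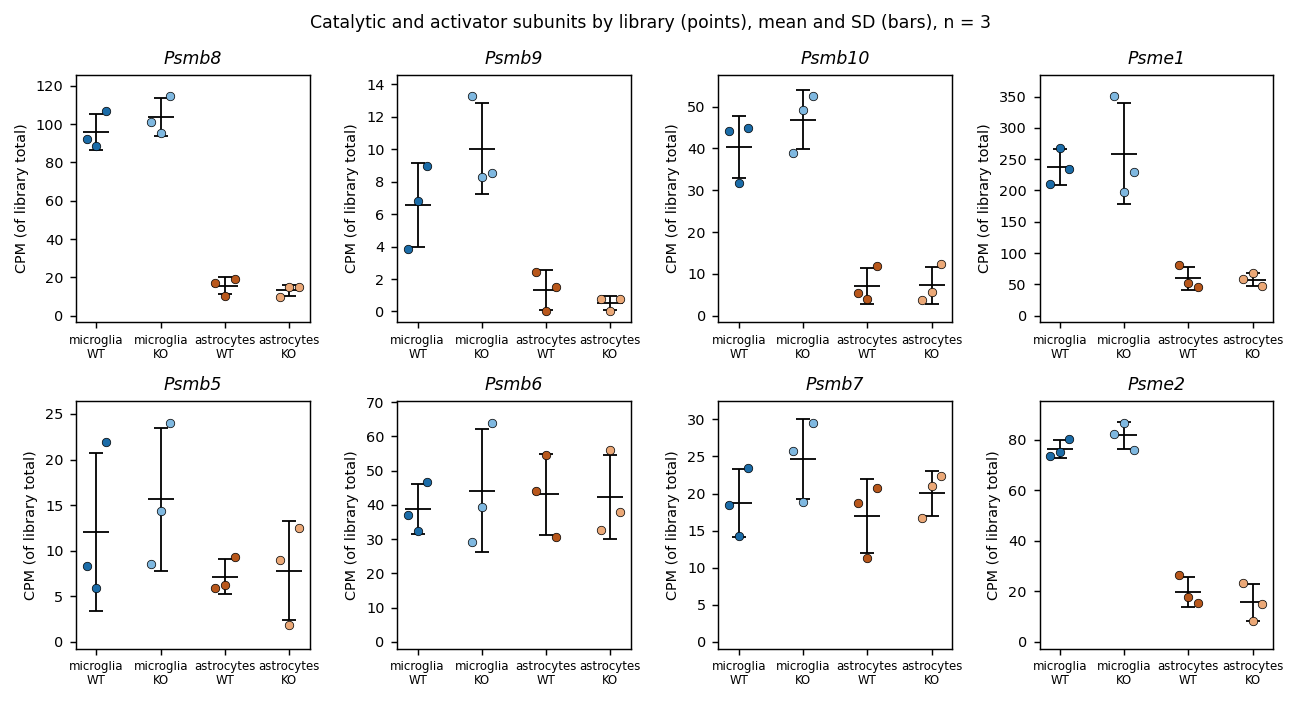
CPM of the immunoproteasome subunits Psmb8, Psmb9 and Psmb10 and the activator Psme1 (top) and of Psmb5, Psmb6, Psmb7 and Psme2 (bottom) by library. Points are the 3 libraries of each group and bars the mean and SD. Psmb8 lies between 88.7 and 114 CPM in the microglia and between 9.95 and 19.1 CPM in the astrocytes, whereas the groups of Psmb5, Psmb6 and Psmb7 overlap.

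Each immunoproteasome subunit was then set against the standard subunit whose place it takes, as the log2 ratio of their counts within a library after adding 0.5 to each; gene length and library total cancel when such ratios are compared between libraries. Psmb10 to Psmb7 was 1.02 ± 0.29 (SD, n = 6) in microglia and -1.49 ± 0.55 (SD, n = 6) in astrocytes. The ratio was higher in the microglia of every animal, by 1.69 to 3.27, with a mean difference of 2.52 ± 0.66 (SD over 6 animals; 2-sided exact permutation p = 0.03125, the smallest that 6 pairs can give; 0.0469 adjusted over the 3 ratios). Psmb9 to Psmb6 was -2.36 ± 0.73 (SD, n = 6) in microglia and -6.67 ± 2.88 (SD, n = 6) in astrocytes, higher in microglia in 6 of 6 animals by a mean of 4.31 ± 3.11 (SD; exact permutation p = 0.03125, adjusted 0.0469). The size of that difference rests in part on the 2 astrocyte libraries without a Psmb9 count, in which the ratio is set by the 0.5 that was added. With 5 added to each count the mean difference was 3.03, at the same exact permutation p.

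Psmb8 to Psmb5 was 3.03 ± 0.70 (SD, n = 6) in microglia and 1.11 ± 1.05 (SD, n = 6) in astrocytes. It was higher in the microglia of 5 of 6 animals, and the mean difference of 1.92 ± 1.34 (SD) did not pass the exact permutation test (p = 0.0625, also after adjustment). The exception was animal KO 2, at -0.26, whose astrocyte library held 20 counts of Psmb5. Without that animal the mean difference was 2.35, and the smallest exact permutation p that 5 animals can give is 0.0625. Expressed as plain ratios, Psmb8 had 4.76 to 14.98 counts per count of Psmb5 in microglia and 1.10 to 8.10 in astrocytes.

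**Figure D2:**
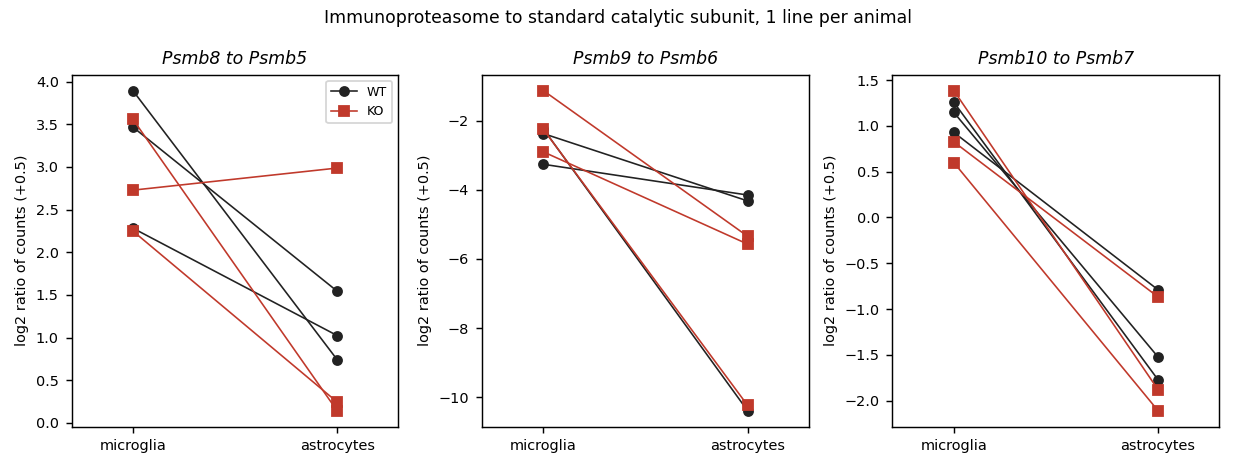
Log2 ratio of the counts of each immunoproteasome subunit to its standard counterpart, after adding 0.5, in the microglia and the astrocytes of each animal (1 line per animal, black circles WT, red squares KO). All 6 lines fall from microglia to astrocytes for Psmb9 to Psmb6 and Psmb10 to Psmb7, and 5 of 6 fall for Psmb8 to Psmb5, the exception being animal KO 2.

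Microglial RNA in the astrocyte sort was measured beside these levels. The 8 microglia markers of an astrocyte library stood at 1.03% to 3.87% (median 1.89%) of their sum in the microglia of the same animal, with at most 1 marker (Trem2, in WT library 2) at 0. Psmb8 in astrocytes stood at 9.84% to 18.7% (median 14.4%) of its microglial level, Psmb10 at 9.82% to 26.7%, Psme1 at 16.6% to 38.3% and Psme2 at 9.65% to 36.1%, each above the marker percentage in every animal. Psmb9 stood at 0% to 63.6%, and was at 0 in both astrocyte libraries named above. The 6 markers of monocytes and border macrophages, which also use immunoproteasomes, summed to 151 to 350 CPM in microglia and to 9.27 to 25.2 CPM in astrocytes. In microglia most of the sum came from F13a1, Mrc1 and Cd163, with means of 107, 103 and 57.1 CPM. Ccr2, Plac8 and Ly6c2 had means of 1.65, 1.54 and 0.416 CPM there. Ly6c2 was at 0 in KO microglia libraries 1 and 2 and Plac8 in KO microglia library 2. The part of such cells in the microglial level was not tested. The 4 oligodendrocyte markers summed to 224 to 1648 CPM in microglia and 750 to 3697 CPM in astrocytes, and the 3 choroid plexus markers to 341 to 2119 CPM and 446 to 1030 CPM, with none at 0. Their part in the levels of the proteasome genes was not tested. Markers of neurons reached at most 102 CPM, of endothelium 76.0 CPM, of neutrophils 21.9 CPM, of B cells 6.30 CPM and of T and NK cells 0.151 CPM in any library. In such bulk samples, fewer cells with a transcript and less transcript per cell cannot be told apart.

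The stretches upstream of these genes are shown because the immunoproteasome members differed together while their counterparts did not pass the test with all animals in the fit. Of the 49 members, 41 have an entry in the RefSeq promoter table (GRCm38.p6, an earlier build than the authors' GRCm39); Psmb7 has none. The 200 bases before the annotated start were searched on both strands for 4 short motifs: the IRF core GAAANNGAA (interferon regulatory factors), the GAS element TTCNNNGAA (STAT factors), an NF-kB site GGANNTTCC, and the core TGACNNNGC bound by NRF1, the product of Nfe2l1 that raises standard subunits when proteasome activity falls. Capitals mark the matches, and each sequence reads 5′ to 3′ on the gene's strand and ends at the base before the start.
Psmb8, chr17:34197995-34198194, plus strand: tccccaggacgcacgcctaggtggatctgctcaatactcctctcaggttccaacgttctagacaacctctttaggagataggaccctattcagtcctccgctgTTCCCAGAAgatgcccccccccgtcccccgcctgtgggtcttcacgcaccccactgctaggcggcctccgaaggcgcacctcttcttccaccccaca
Psmb9, chr17:34187331-34187530, minus strand: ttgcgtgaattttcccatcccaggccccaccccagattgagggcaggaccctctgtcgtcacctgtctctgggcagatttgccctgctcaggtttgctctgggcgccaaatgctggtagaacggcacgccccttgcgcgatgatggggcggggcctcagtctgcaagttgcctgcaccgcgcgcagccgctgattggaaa
Psmb10, chr8:105938393-105938592, minus strand: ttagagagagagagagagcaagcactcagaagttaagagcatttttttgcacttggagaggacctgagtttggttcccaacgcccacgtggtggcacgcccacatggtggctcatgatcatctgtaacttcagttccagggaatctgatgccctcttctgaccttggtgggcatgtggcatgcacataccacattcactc
Psmb5, chr14:54617996-54618195, minus strand: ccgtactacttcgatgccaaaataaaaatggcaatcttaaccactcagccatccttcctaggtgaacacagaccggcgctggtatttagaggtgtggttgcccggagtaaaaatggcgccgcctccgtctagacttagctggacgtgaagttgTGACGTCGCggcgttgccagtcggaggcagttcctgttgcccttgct
Psmb6, chr11:70525157-70525356, plus strand: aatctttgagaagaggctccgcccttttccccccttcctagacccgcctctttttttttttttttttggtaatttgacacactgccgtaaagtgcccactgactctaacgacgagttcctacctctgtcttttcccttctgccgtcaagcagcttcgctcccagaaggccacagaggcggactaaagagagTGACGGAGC
Psmb8 held 1 GAS match, TTCCCAGAA, 97 bases before its start, and was the only 1 of 41 members with that motif, which 5.49% of all 32851 promoters of the table held in the same window. Psmb5 and Psmb6 each held an NRF1 core, TGACGTCGC at 47 and TGACGGAGC at 9 bases before the start, as did the chaperone Psmd9; 8.60% of all promoters held it. None of the 4 motifs was matched in the windows of Psmb9 and Psmb10. The IRF core was matched in 3 members, Psmb3, Psmd4 and Psmd9, against 5.57% of all promoters, and the NF-kB site in 5, Psma1, Psmc2, Psmd8, Psme3 and Psme4, against 2.98%. A match describes letters and is not a bound site.

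Besides the immunoproteasome subunits, the activator genes Psme1, Psme2 and Psme2b had the largest log2 fold changes among the members called between the cell types. Psme1 (PA28α) stood at 211, 267 and 234 CPM in WT and at 350, 198 and 229 CPM in KO microglia, against 80.7, 52.4 and 46.0 CPM in WT and 58.2, 67.8 and 46.9 CPM in KO astrocytes. Every microglia library lay above every astrocyte library, and the log2 fold change was 1.80 (SE 0.21, edgeR adjusted p = 2.1e-05). Psme2 (PA28β) stood at 73.8, 75.1 and 80.3 CPM in WT and at 82.4, 86.8 and 76.2 CPM in KO microglia, against 26.6, 17.8 and 15.3 CPM in WT and 23.4, 8.38 and 15.2 CPM in KO astrocytes. Here too the cell types lay apart throughout, and microglia were higher by 1.95 on the log2 scale (SE 0.21, edgeR adjusted p = 9.7e-06). Psme2b, a near copy of Psme2, stood at 15.9 to 29.3 CPM in microglia and 0.465 to 2.73 CPM in astrocytes (log2 fold change 4.17, SE 0.42, edgeR adjusted p = 6.6e-06). Its exons share 41 bases with those of 9930111J21Rik1 on the same strand. In all, 13 members have exons that overlap those of another gene in the GENCODE M21 annotation. Psme2 and Psme2b were the only members with counts more than 0.001 away from a whole number, as happens where reads are divided between near copies, so the share of each is uncertain; with their counts summed the log2 fold change was 2.23 (edgeR adjusted p = 2.7e-06).

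The 2 activators outside the interferon-induced pair differed less. Psme3 (PA28γ, a nuclear activator) stood at 58.2 to 86.3 CPM in microglia and 30.3 to 45.5 CPM in astrocytes, higher by log2 0.66 in microglia (SE 0.17, edgeR adjusted p = 0.0059). Psme4 (PA200, known for histone turnover) stood at 76.6 to 104 CPM and 31.1 to 69.3 CPM, higher by log2 0.43 (SE 0.16, edgeR adjusted p = 0.033). Psme4 was called in 12 of 18 settings: its edgeR adjusted p was 0.055 without animal WT 1, 0.052 without animal WT 3, 0.054 with no filter beyond 1 count, 0.057 with totals that leave out the 8 abundant RNAs, 0.16 in the WT animals alone and 0.11 in the KO animals alone. Neither pair of ranges overlapped. Psmf1 (PI31, named as an inhibitor of the core) stood at 9.73 to 19.9 CPM in microglia and 7.72 to 17.8 CPM in astrocytes, a log2 difference of 0.01 (SE 0.29, edgeR adjusted p = 0.99).

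Counting all roles, 11 of 49 members (22.4%) were called higher in microglia, where 27% of all 17294 genes tested were, and none was called lower, where 33.2% of all genes were. The 11 comprise all 3 immunoproteasome subunits, all 5 activators and 3 others: the alpha subunit Psma1 (log2 0.69) and the lid subunits Psmd3 (0.68) and Psmd13 (0.70). The share called is thus near the background in the higher direction. At a log2 fold change of at least 1, 6 of 49 were called higher, the immunoproteasome trio with Psme1, Psme2 and Psme2b, where 19.8% of all genes were. The median log2 difference was 0.23 over the members and -0.15 over all genes tested, and 36 of 49 members had a difference above 0, where 46.9% of all genes did. At an unadjusted edgeR p under 0.05, 1 member was lower, where 35.3% of all genes were: the alpha subunit Psma2 at -0.53 (SE 0.23, edgeR adjusted p = 0.063); DESeq2 called Psma2 lower and voom called Psma2 and Psmb11. In 11 members, with 24.9% of all genes, the 6 microglia libraries lay above the 6 astrocyte libraries without overlap: those called, with the 19S ATPase Psmc6 in place of Psmd13.

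Of the other genes of the 20S core, Psma1 alone passed the test. The 7 alpha subunits ranged from -0.53 to 0.69 in log2 difference, with 1 called, and the 4 structural beta subunits Psmb1 to Psmb4 from -0.06 to 0.05, with edgeR adjusted p-values of 0.83 and above and SEs of 0.19 to 0.32. Psma8 stood at 1.88 to 4.20 CPM in microglia and 0 to 2.55 CPM in astrocytes, at 0 in 2 astrocyte libraries. Psmb11 was at 0 in 5 of 6 microglia libraries and in 2 of 6 astrocyte libraries and reached 2.57 CPM at most, so that its fitted log2 value of -4.55 (SE 2.38, edgeR adjusted p = 0.13) is not a bound.

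The 6 ATPases of the 19S base, Psmc1 to Psmc6, which unfold the substrate, all had log2 differences above 0, from 0.16 to 0.42, and none was called (smallest edgeR adjusted p = 0.074, for Psmc6). Psmc6 stood at 39.3 to 67.0 CPM in microglia and 29.5 to 38.0 CPM in astrocytes. The scaffold subunits Psmd1 and Psmd2 and the receptor Psmd4 ranged from 0.03 to 0.32 with none called. Among the 8 lid subunits, Psmd3 stood at 105, 66.8 and 88.5 CPM in WT and 47.4, 68.8 and 65.2 CPM in KO microglia, against 30.1 to 38.1 CPM in WT and 34.7 to 44.8 CPM in KO astrocytes. Its microglia lay above its astrocytes throughout, by more in the WT (log2 1.118, called) than in the KO animals (log2 0.24, edgeR adjusted p = 0.39); the difference between them did not pass, as given below. The deubiquitinase of the lid, Psmd14, did not differ beyond its error (log2 0.09, SE 0.25, edgeR adjusted p = 0.77). Chaperones of 19S assembly, Psmd5, Psmd9 and Psmd10, all had log2 differences under 0 (-0.51 to -0.34), and those of 20S assembly, Psmg1 to Psmg4, -0.48 to 0.41; none of the 7 was called.

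**Figure D3:**
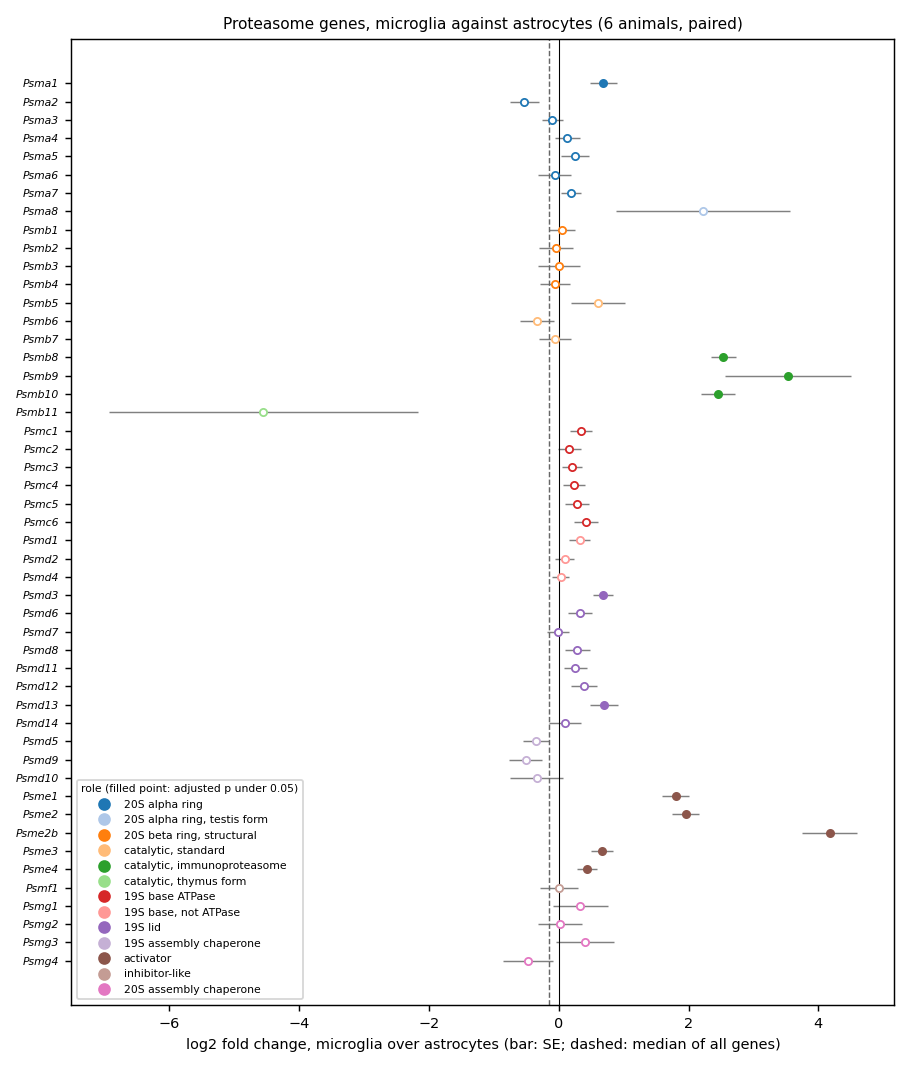
Log2 fold change of each of the 49 proteasome genes, microglia over astrocytes (paired by animal, n = 6), with its SE as a bar; filled points passed an edgeR adjusted p of 0.05, colours give the role and the dashed line is the median of all genes. The 3 immunoproteasome subunits and Psme1, Psme2 and Psme2b sit between 1.80 and 4.17, apart from most other members near 0.

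Of 12 genes of class I peptide supply and its interferon control, 12 were called higher (background 27%), among them B2m, the class I light chain (log2 2.696), the transcription factor Irf1 (2.52), the class I transactivator Nlrc5 (2.49) and the class I heavy chain H2-D1 (2.45). Of 17 partners and regulators of the standard proteasome 16 were tested and 0 were called lower and 9 higher, the latter including the protease Ddi2 that activates NRF1 (1.96), the proteasome-stimulating Zfand5 (1.49) and the ubiquitin fusion gene Rps27a (1.31). At an unadjusted edgeR p under 0.05 none of the 16 was lower either. Pomp, the core's maturation factor, and Nfe2l1 were not called (log2 0.34 and 0.23, SE 0.23 and 0.13).

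The count of 11 depended on scaling and on the animals in the fit. It was 23 with library totals alone, which moves the median of all genes from -0.15 to 0.13, and 17 with limma voom. With each animal left out in turn it ranged from 9 (without WT 1) to 20 (without KO 2). It was 7 in the KO animals alone and 8 in the WT animals alone. Psmb8, Psmb10, Psme1 and Psme2 were called in 18 of 18 settings. Psmd13 was not called without animal WT 1 (log2 0.62, edgeR adjusted p = 0.065) or in either genotype's animals alone. In the WT animals alone Psma1 also lost its call (edgeR adjusted p = 0.13), as did Psme3 (edgeR adjusted p = 0.055) in the KO animals alone.

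In microglia, no proteasome gene was called between libraries labelled KO and WT (0 of 48 tested), as none was among all 14191 genes (0%). The immunoproteasome subunits stood at 104 ± 9.70 CPM (SD, n = 3) in KO and 95.9 ± 9.56 CPM (SD, n = 3) in WT for Psmb8, at 46.9 ± 7.04 and 40.2 ± 7.43 CPM (SD, n = 3) for Psmb10, and at 10.03 ± 2.81 and 6.55 ± 2.58 CPM (SD, n = 3) for Psmb9. The log2 differences were 0.09 (SE 0.18), 0.20 (SE 0.23) and 0.60 (SE 0.43), with overlapping groups and edgeR adjusted p-values of 0.80 to 0.94. The standard subunits Psmb5 (log2 0.37, SE 0.48), Psmb6 (0.17, SE 0.28) and Psmb7 (0.37, SE 0.28) and the activators Psme1 (0.10, SE 0.23) and Psme2 (0.08, SE 0.18) overlapped likewise.

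At an unadjusted p under 0.05, edgeR gave 4 members (8.33% of 48) against 7.42% of all genes; DESeq2 and limma voom called no member either, with 4 and 3 unadjusted. The alpha subunit Psma6 stood at 36.8, 36.2 and 53.9 CPM in KO and 22.9, 29.1 and 29.9 CPM in WT microglia (log2 0.61, SE 0.24, edgeR adjusted p = 0.62). The lid subunit Psmd6 stood at 64.0, 64.0 and 77.8 CPM in KO and 37.2, 42.5 and 59.9 CPM in WT (log2 0.54, SE 0.22, edgeR adjusted p = 0.62). In both the KO libraries lay above the WT libraries. The lid subunit Psmd3 went the other way, at 47.4, 68.8 and 65.2 CPM in KO and 105, 66.8 and 88.5 CPM in WT (log2 -0.55, SE 0.23, edgeR adjusted p = 0.63), with 1 overlapping pair of values. Psmd12, also of the lid, was the other member of the 4 (log2 0.53, SE 0.23, edgeR adjusted p = 0.65). Without WT library 1, none of the 48 was under 0.05 unadjusted.

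The small differences mostly pointed the same way. Of 48 members 38 had a log2 difference above 0, where 49.9% of all genes did, and the median was 0.19 against -0.0013. All 7 alpha subunits, the 4 structural beta subunits and both catalytic trios were among the 38. The KO libraries lay wholly above the WT libraries in 8 members (Psma1, Psma3, Psma6, Psmc2, Psmd5, Psmd6, Psmd11 and Psmd12), with 6.53% of all genes, and wholly below in 0, with 6.57% of all genes. WT library 1 was the lowest of the 6 in the sum of all members, at 2265 CPM, and the other WT libraries stood at 2432 and 2540 CPM against 2460 to 2781 CPM in KO; without WT library 1 the members' median was 0.09. The choroid plexus markers summed to 840.5, 1049.7 and 2119 CPM in WT and to 341, 529 and 863 CPM in KO microglia, overlapping in 1 pair of libraries, and the oligodendrocyte markers to 224 to 1648 CPM in WT and 259 to 687 CPM in KO microglia; their part in the shift was not tested. None of these counts is a test of the group.

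In astrocytes, 0 of 48 members were called by edgeR (0% of all 15755 genes), nor by DESeq2 or limma voom, with 3 members under 0.05 unadjusted by edgeR, 3 by DESeq2 and 2 by limma voom, where 2.37% of all genes were by edgeR. Psmb8 stood at 13.3 ± 2.89 CPM (SD, n = 3) in KO and 15.6 ± 4.53 CPM (SD, n = 3) in WT, Psmb10 at 7.26 ± 4.43 and 7.11 ± 4.27 CPM (SD, n = 3), and Psmb9 at 0.512 ± 0.443 and 1.32 ± 1.23 CPM (SD, n = 3). Their log2 differences were -0.07 (SE 0.38), 0.17 (SE 0.59) and -1.30 (SE 1.73), and all groups overlapped. Psmb5 (log2 0.17, SE 0.60), Psmb6 (0.12, SE 0.34), Psmb7 (0.39, SE 0.33), Psme1 (0.09, SE 0.30) and Psme2 (-0.29, SE 0.38) did not pass either, each at an edgeR adjusted p of 0.999. The directions of Psmb6 and Psme1 turned with library totals alone, to -0.03 and -0.05.

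The chaperone Psmg1, which pairs with Psmg2 to build the alpha ring, stood at 6.29, 14.4 and 8.60 CPM in KO and at 3.74, 2.44 and 4.31 CPM in WT astrocytes. The groups did not overlap, and the log2 difference was 1.68 (SE 0.57, edgeR adjusted p = 0.999). The ATPase Psmc5 stood at 25.3, 36.6 and 36.9 CPM in KO and 24.2, 16.8 and 26.9 CPM in WT (log2 0.69, SE 0.30, edgeR adjusted p = 0.999), and Psma4 at 55.3, 73.8 and 51.9 CPM in KO and 52.4, 31.3 and 47.3 CPM in WT (log2 0.63, SE 0.29, edgeR adjusted p = 0.999). Both overlapped by 1 pair of values. Without KO library 2, which is the highest of the 3 for Psmg1 and Psma4 and had 39.5% of its counts in the 8 abundant RNAs, no member was under 0.05 unadjusted.

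Here 39 of 48 members had a log2 difference above 0, where 49.4% of all genes did, with a median of 0.26 against -0.01. With library totals alone the split was 31 to 17 and the median 0.13, where that of all genes fell to -0.11, and without KO library 2 the median was 0.07. The KO libraries lay above the WT libraries in 3 members, Psma7, Psmd6 and Psmg1 (2.39% of all genes), and below in 0 (5.74% of all genes). Psmd6 was the only member without overlap in both cell types, and it was called in neither. The share of all genes without overlap in both was not counted, so Psmd6 has no background to be set against.

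**Figure D4:**
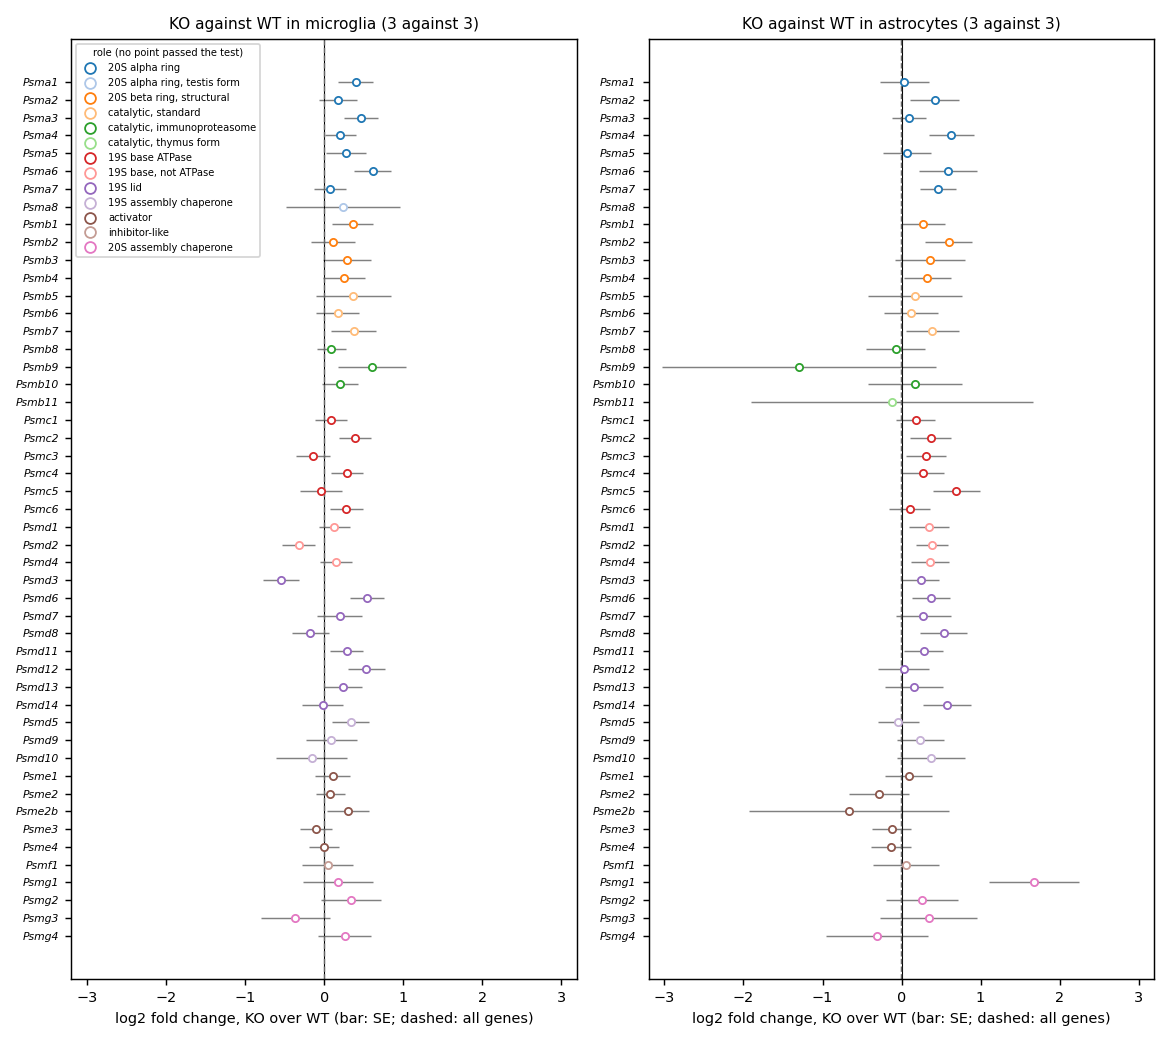
Log2 fold change of the proteasome genes, KO over WT, in microglia (left) and astrocytes (right), 3 libraries against 3, with the SE as a bar, the role as the colour and the median of all genes as a dashed line. Most points lie slightly right of 0, with medians of 0.19 and 0.26, and none passed an edgeR adjusted p of 0.05.

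The immunoproteasome-to-standard ratios did not differ between genotypes beyond their spread. In microglia Psmb8 to Psmb5 was 2.85 ± 0.66 (SD, n = 3) in KO and 3.22 ± 0.84 (SD, n = 3) in WT, Psmb9 to Psmb6 -2.09 ± 0.90 and -2.62 ± 0.56 (SD, n = 3), and Psmb10 to Psmb7 0.94 ± 0.40 and 1.11 ± 0.17 (SD, n = 3), on the log2 scale. The 2-sided exact permutation p-values were 0.7, 0.5 and 0.6 (0.7 each after adjustment over the 3 ratios). In astrocytes the KO minus WT differences were 0.02, -0.76 and -0.26 (exact permutation p = 1, 0.6 and 0.5; adjusted 1, 0.9 and 0.9). With 3 libraries against 3 the smallest p that this test can give is 0.1, so it could not have passed.

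Whether the KO effect differed between microglia and astrocytes was tested in all 12 libraries. No member was called by edgeR, DESeq2 or limma voom (0% of 17294 genes by edgeR), and 3 of 49 were under 0.05 unadjusted by edgeR, with 4.74% of all genes, and 2 each by DESeq2 and limma voom. These 3 were Psmd3 (log2 -0.87, SE 0.31, edgeR adjusted p = 0.91), the scaffold subunit Psmd2 (-0.83, SE 0.30, adjusted p = 0.91) and Psmc5 (-0.87, SE 0.37, adjusted p = 1), each lower in KO relative to WT in microglia than in astrocytes. Psmd2 stood at 86.5, 88.3 and 131 CPM in KO and 131, 110 and 135 CPM in WT microglia, and at 99.4, 85.9 and 99.7 CPM in KO and 84.2, 63.4 and 90.1 CPM in WT astrocytes. For Psmb8 (0.09, SE 0.36), Psmb10 (-0.04, SE 0.51), Psmb9 (1.51, SE 1.95), Psmb5 (0.43, SE 0.83), Psmb6 (-0.08, SE 0.52), Psmb7 (-0.11, SE 0.48), Psme1 (-0.12, SE 0.41) and Psme2 (0.28, SE 0.40) the edgeR adjusted p was 1.

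Of the pathway genes, none was called between the genotypes in either cell type by edgeR. In microglia 4 of the 12 class I genes were under 0.05 unadjusted, all lower in KO, where 5.07% of all genes were: H2-K1 (log2 -0.63), Tap2 (-0.63), Tap1 (-0.52) and Tapbp (-0.41), which were named after their values were seen. The list did not move as a whole. Means in KO and WT microglia were 518 and 391 CPM for B2m and 79.7 and 68.0 CPM for Irf1, higher in KO. Those of H2-D1 were 310 and 364 CPM, lower in KO. In astrocytes 1 of 12 was, also Tap1 (log2 -1.06, SE 0.39, edgeR adjusted p = 0.999), where 1.24% of all genes were lower. Tap1 stood at 12.3, 5.30 and 20.2 CPM in KO and 25.0, 30.4 and 26.9 CPM in WT astrocytes, without overlap. Psmb9, whose exons overlap those of Tap1, stood at 0.765, 0 and 0.770 CPM against 2.45, 0 and 1.504 CPM in the same libraries. In microglia the estimates for Psmb9 and Tap1 had opposite signs, at log2 0.60 and -0.52. Of the 16 partners tested, 1 was under 0.05 unadjusted in microglia, Nfe2l1 (log2 -0.48, SE 0.19, edgeR adjusted p = 0.62), and 0 in astrocytes.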

How the data were processed

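RNA was measured in 12 libraries of full-length cDNA amplified with a SMART-Seq HT kit, without molecular identifiers, per the labels' protocols. The authors deposited 1 table of expected counts per cell type, made with STAR 2.7.10b and RSEM 1.3.3 on GRCm39, per the submitters' processing notes; the annotation was not stated in those sources. The deposited expected counts were rounded, and CPM are rounded counts over their library's sum. RSEM divides reads between near copies, which touches Psme2 and Psme2b. Limits at 0 counts reflect counting error alone, because PCR copies are not separate molecules.

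Tests used edgeR 4.0.16 (quasi-likelihood, TMM, filterByExpr with a minimum count of 10) in R 4.3.3, with Benjamini-Hochberg adjustment over all genes tested; called means an adjusted p under 0.05. Genotype was fitted per cell type, on 6 libraries, where 48 of 49 members passed the filter (Psmb11 did not in microglia, Psma8 did not in astrocytes). Microglia against astrocytes, and the difference between the genotype effects, were fitted to all 12 libraries with the animal as a block, where all 49 passed. The SE is the log2 fold change divided by the square root of F. Ratios within a library, with 0.5 added to each count, were compared by 2-sided exact permutation and adjusted over the 3 ratios. Counts were also simulated with the same spread (the common dispersion) for every gene and 100 genes changed at each size. On these the paired fit recovered 5% of genes changed by 1 and 63% of those changed by 2 on the log2 scale. The microglia genotype fit recovered 3% and 53%, the astrocyte one 0% and 19%, and the fit of the difference between genotype effects 0% at either size. In the data each gene has its own spread, and Psme4 was called between the cell types at log2 0.43. The shares recovered are therefore not the power for the members.

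Each animal's microglia and astrocytes carry its number in their labels, which gave the pairs; across genes, paired libraries deviated from their groups' averages with a correlation of 0.006 to 0.062. Replicates are separate animals, and no library repeated another (chi-square between libraries of a group, divided by its degrees of freedom, 29.8 to 117). The alternatives were DESeq2 1.42.0, limma 3.58.1 (voom with quality weights), other scalings and filters, blocks, and each replicate left out; summing Psme2 with Psme2b, and each genotype's animals alone, were added after the data were seen. Named in full are the 6 catalytic subunits, Psme1 and Psme2, the 5 called members with the largest rise, the 3 members with the smallest unadjusted p per genotype comparison, and up to 4 called genes per pathway list, of which 1 is not reported here. The members, lists and tests were chosen with earlier results of these data known. Transcript lengths and exon overlaps come from GENCODE M21 and promoters from RefSeq, both on GRCm38, used for lengths, overlaps and the printed sequences only. The length of a gene is that of its longest coding transcript, with transcripts annotated as principal taken first. Untreated mice were not analysed here.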

Additional observations from a re-analysis of the deposited data

Results flagged for a closer look

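In CPM of the library totals, the 19S assembly chaperone Psmd5 differed between the genotypes in the sign of its cell type difference. Its log2 CPM in microglia minus that in astrocytes was above 0 in each of the 3 KO animals and under 0 in each of the 3 WT animals, and the KO mean exceeded the WT mean by 0.51. Psmd5 was the only member found when all 49 were searched for such signs. The share of all genes with such signs was not counted. Psmd5 stood at 29.6, 30.7 and 37.1 CPM in KO and 25.1, 24.8 and 26.2 CPM in WT microglia, and at 28.3, 29.1 and 27.6 CPM in KO and 31.7, 34.6 and 28.9 CPM in WT astrocytes. The opposite signs were not tested as such. The totals include the 8 abundant RNAs, which took 11.8% to 15.4% of them in microglia and 26.2% to 39.5% in astrocytes. The split of signs belongs to that scale. With those RNAs left out of the totals, animals KO 1 and KO 2 fall under 0, as the WT animals do. The edgeR fit of all 12 libraries, scaled by TMM, gave a difference between the genotypes of 0.27 (SE 0.40, edgeR adjusted p = 1). In that fit Psmd5, Psmd9 and Psmd10 all had log2 cell type differences under 0 over both genotypes (-0.51 to -0.34), and none was called.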

How the results depend on the processing

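Of the results with a test, the calls of Psmb8, Psmb10, Psme1 and Psme2 as higher in microglia held under every alternative run. No alternative called a member between the genotypes or for the difference between genotype effects, so for these the reruns bear on direction alone. The cause of each change below was not tested unless the alternative itself shows it. The number of members higher in microglia, 11, became 17 with limma voom, 23 with library totals alone, 6 with an absolute log2 fold change of at least 1 and 7 in the KO animals alone, and ranged from 9 to 20 with each animal left out (20 without KO 2). The number lower, 0, became 1 with DESeq2, DESeq2 size factors, totals without the 8 abundant RNAs, a minimum count of 50, or no replicate block, and 2 with limma voom. Psmb5 was called higher in microglia in 1 of 18 settings, without animal KO 1 (log2 1.12, edgeR adjusted p = 0.043). Without pairs (no replicate block) the Psmb8 to Psmb5 difference of 1.92 passed, at an exact permutation p of 0.0087. With an animal left out, Psmb9 to Psmb6 (3.54 to 4.99) and Psmb10 to Psmb7 (2.37 to 2.68) no longer passed, since 5 animals cannot give an exact permutation p under 0.0625.

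Directions turned for differences smaller than their SE or close to it. Between the genotypes in microglia, Psmb8 (-0.0042) and Psme2 (-0.020) turned in the fit of all 12 libraries and Psme1 with limma voom (-0.023); with 1 library left out, Psmb5 ranged from -0.055 to 1.10, Psmb6 from -0.17 to 0.41 and Psme1 from -0.17 to 0.27. In astrocytes, Psmb6 and Psme1 turned with limma voom (-0.012 and -0.029) and library totals (-0.027 and -0.051); with 1 library left out, Psmb8 ranged from -0.33 to 0.15, Psmb10 from -0.34 to 0.70, Psmb5 from -0.33 to 0.59, Psmb6 from -0.30 to 0.38 and Psme1 from -0.20 to 0.38. The astrocyte ratio Psmb8 to Psmb5, 0.02, became -0.029 with 5 added to each count and ranged from -0.91 to 0.51 with 1 library left out, as Psmb9 to Psmb6 did from -2.81 to 0.83 and Psmb10 to Psmb7 from -0.63 to 0.029. Between the cell types, Psmb7 turned with limma voom (0.031), library totals (0.23) and the WT animals alone (0.00042); with 1 animal left out, Psmb7 ranged from -0.032 to 0.30 and Psmb6 from -0.44 to 0.044.

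For the difference between genotype effects, limma voom turned Psmb5 (-0.15), Psmb6 (0.12), Psmb7 (0.039) and Psme1 (0.052). Library totals turned Psmb10 (0.20), Psmb6 (0.16), Psmb7 (0.12) and Psme1 (0.11), totals without the 8 abundant RNAs the same 4 (0.13, 0.088, 0.054 and 0.042), and no filter beyond 1 count likewise (0.12, 0.076, 0.044 and 0.031). DESeq2 and its size factors turned Psmb10 (0.026 each). With 1 animal left out, Psmb10 ranged from -0.38 to 0.50, Psmb5 from -0.12 to 1.20, Psmb6 from -0.29 to 0.43, Psmb7 from -0.18 to 0.35 and Psme1 from -0.39 to 0.41.

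WT and KO libraries share only replicate numbers. Same-numbered libraries correlated at 0.035 to 0.156 in microglia, above every other WT and KO pair, and at -0.017 to 0.188 in astrocytes, where not all did. With the number as a replicate block, 0 members were called in either cell type (30 genes in all in microglia, 0 in astrocytes), and Psmb5 in astrocytes turned to -0.067. DESeq2 called 41 genes in microglia, 4 in astrocytes and 40 for the difference between genotype effects, where edgeR called 0, none of them members. Without a filter edgeR called 121, 17 and 146. Depth limits Psmb11, Psma8, Psmb9 and Psmb5, at 0 to 40, 0 to 61, 0 to 137 and 20 to 349 counts per library.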
